A study of Homo sapiens with 44 samples.

Results

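The transcripts described are those of 40 genes of the hypoxia response and of glycolysis, followed through IRF2BP2 knockdown, glucocorticoid and cytokine treatment in 2 human cell lines. The 40 were chosen by symbol as known members of these pathways, not by their measured values, although earlier results of these data were known. All 40 were found in the HEK293-GR table, among 25690 genes, and in the A549 table, among 25689 symbols. They comprise 3 transporters, 16 glycolytic enzymes, 5 regulators of glycolytic flux, 7 hypoxia-inducible factors with their feedback genes, and 9 secreted and other targets. All 40 passed the filter on low values in HEK293-GR cells (at least 10 reads in at least 3 libraries), although the filter was passed by CA9 only through its dexamethasone libraries.

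HEK293-GR is an isogenic Flp-In line of HEK293 cells (embryonic kidney) made to express the glucocorticoid receptor at all times, so every HEK293-GR group carries that transgene. A549 is a lung adenocarcinoma line with its own receptor. In steroid-depleted medium both lines were given 20 nM of a pool of siRNAs to IRF2BP2 (siIRF2BP2) or of a control pool (siNON) for 72 h, and then 100 nM dexamethasone (dex) or ethanol vehicle for 6 h. A549 cells were also given 10 ng/ml TNF, an inflammatory cytokine, alone or together with dex. Polyadenylated RNA was sequenced, and no low-oxygen group is among the labels, so the genes were measured at their level without hypoxia. The HEK293-GR groups were siIRF2BP2 with dex, siIRF2BP2 with vehicle, siNON with dex and siNON with vehicle, each with 3 libraries in the table, and 4 further labelled samples were not analysed here. In A549 the same siRNAs were combined with dex plus TNF, TNF, dex or vehicle, and the authors pooled each group into 1 column. IRF2BP2 was also mapped by chromatin immunoprecipitation (ChIP) in HEK293-GR cells after 1 h of 100 nM dex or vehicle, following 48 h in steroid-depleted medium, with no siRNA named for these samples. Nothing in the labels says that the libraries of a group came from separate cultures, so the p-values measure the spread between these libraries, which may be technical in part. In bulk RNA, fewer cells of a type and less RNA per cell cannot be told apart.

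Cells answer low oxygen mainly through the hypoxia-inducible factors. Their alpha subunits, HIF1A and EPAS1 (also known as HIF-2 alpha), are hydroxylated by the oxygen-dependent EGLN enzymes and then destroyed, and when oxygen falls they persist, pair with ARNT and bind a short DNA core with the letters ACGTG or GCGTG. Known targets include glucose and lactate transporters, most enzymes of glycolysis, the pyruvate dehydrogenase kinases that keep pyruvate out of mitochondria, and secreted factors such as VEGFA. Glucocorticoids are known to alter glucose use in many tissues, and IRF2BP2 is known as a transcriptional cofactor.

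Promoter sequences of 36 of the 40 genes were matched in the RefSeq promoter table (build GRCh38.p14), each covering 250 bases before and 50 bases after a start site, in 68 windows. ACGTG or GCGTG was searched on both strands, where a CACGTG palindrome gives a match on each strand. At least 1 match lay in 45 of the 68 windows (66.2%), against 48.4% of the 35116 windows of all genes. A match is only a match of letters and no evidence of binding. The 4 windows below belong to the 2 alpha subunits, EPAS1 (chr2:46297157-46297456, plus strand) and HIF1A (chr14:61695263-61695562, plus strand, first of 2 start sites), and to 2 targets whose transcripts changed, ALDOC (chr17:28576846-28577145, minus strand) and CA9 (chr9:35673678-35673977, plus strand). Each is printed 5′ to 3′ with matches to the core, on either strand, in capitals.
EPAS1: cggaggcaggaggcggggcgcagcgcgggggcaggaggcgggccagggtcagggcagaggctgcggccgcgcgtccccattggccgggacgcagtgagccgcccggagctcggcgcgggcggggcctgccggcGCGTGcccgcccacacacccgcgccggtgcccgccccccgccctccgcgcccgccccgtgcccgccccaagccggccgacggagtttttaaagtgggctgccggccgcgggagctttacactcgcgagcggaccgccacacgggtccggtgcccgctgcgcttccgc
HIF1A: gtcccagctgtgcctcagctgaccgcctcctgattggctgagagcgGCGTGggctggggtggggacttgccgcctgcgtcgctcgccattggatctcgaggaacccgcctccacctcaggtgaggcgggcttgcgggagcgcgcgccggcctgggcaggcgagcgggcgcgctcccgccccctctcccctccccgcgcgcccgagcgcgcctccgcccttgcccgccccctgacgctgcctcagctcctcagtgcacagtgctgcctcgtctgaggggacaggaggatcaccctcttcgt
ALDOC: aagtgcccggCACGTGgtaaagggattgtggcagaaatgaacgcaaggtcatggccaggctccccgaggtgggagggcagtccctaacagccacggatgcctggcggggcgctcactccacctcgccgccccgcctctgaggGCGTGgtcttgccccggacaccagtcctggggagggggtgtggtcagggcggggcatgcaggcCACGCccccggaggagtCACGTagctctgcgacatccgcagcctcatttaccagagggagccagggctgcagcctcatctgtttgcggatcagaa
CA9: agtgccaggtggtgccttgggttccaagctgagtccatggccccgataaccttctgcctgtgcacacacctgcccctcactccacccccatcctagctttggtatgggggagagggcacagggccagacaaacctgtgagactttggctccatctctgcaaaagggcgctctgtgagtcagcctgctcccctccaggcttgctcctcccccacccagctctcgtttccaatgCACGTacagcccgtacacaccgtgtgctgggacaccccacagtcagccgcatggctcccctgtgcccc
The ALDOC window held 5 matches in 4 stretches, against 1 match in each of the other windows. Its first stretch is the palindrome.

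In HEK293-GR cells glycolytic enzymes were among the most abundant of these transcripts. Levels there are FPKM, fragments scaled to exon length and to the tags of the library, and may be set side by side between genes except among the densest, which share an upper level. GAPDH, which oxidises glyceraldehyde 3-phosphate, averaged 116 to 130 FPKM in the 4 groups, PKM (pyruvate kinase) 95.3 to 110 FPKM and ENO1 (enolase) 94.1 to 107 FPKM, an order that the upper level makes unsure. TPI1, ALDOA, LDHA, PGAM1, PGK1, GPI and PFKP were also abundant, and all 10 of these had more than 1 read per base of exon. At the other end, the lactate exporter SLC16A3 averaged 0.396 to 0.753 FPKM and CA9, a cell-surface carbonic anhydrase, 0.046 to 0.686 FPKM. HIF1A averaged 28.3 to 35.0 FPKM and EPAS1 1.94 to 5.11 FPKM, so HIF1A was the more abundant alpha subunit in every group.

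The levels of the 10 densest enzymes ran against library depth. GAPDH held between 2.60 and 2.78 reads per base in every library, while its level ran between 97.5 and 142.5 FPKM. None of the 23949 genes of at least 100 bases exceeded 3 reads per base in any library (highest 2.99), so dense genes shared an upper level. All 10 had their lowest level in siIRF2BP2 dex replicate 3, the deepest library at 28.5 M tags, against a median of 21.1 M. Their highest level was in siNON vehicle replicate 2 for 5 of them and in siIRF2BP2 dex replicate 2, the shallowest at 18.2 M, for the other 5. None of the 10 was called in any HEK293-GR comparison, which at this upper level is no measure of how steady their transcripts were. In A549 the GAPDH transcript used held 53.5 to 94.1 reads per base of its genomic span, so no such level applied there.

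**Figure D1:**
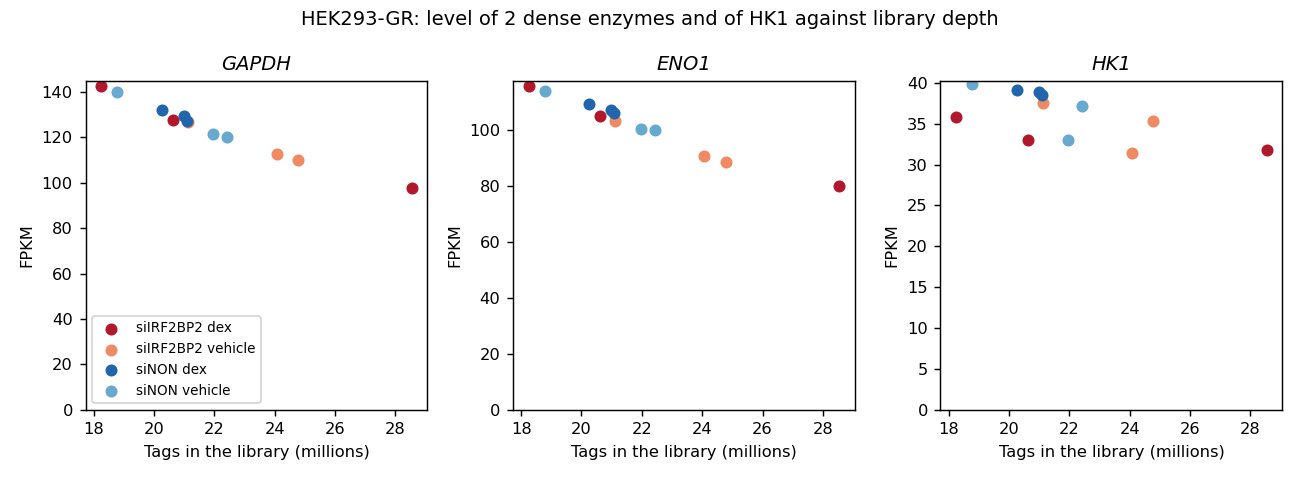
FPKM of GAPDH, ENO1 and HK1 (vertical axes, linear) against the tags of each HEK293-GR library (M, horizontal axes), 1 point per library coloured by group. GAPDH and ENO1 fall steadily with depth, to 97.5 FPKM for GAPDH in the library of 28.5 M tags. HK1, at under 1 read per base, scatters more but also tends lower in deep libraries. It had 31.8 FPKM in that library and 39.8 FPKM in siNON vehicle replicate 2 (18.8 M tags). The part of depth in the levels of genes under 1 read per base was not tested.

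IRF2BP2 itself checked the labels. It had 9.64, 11.1 and 10.4 FPKM in siIRF2BP2 dex libraries and 12.6, 11.8 and 13.7 FPKM in siIRF2BP2 vehicle libraries, against 20.6, 20.0 and 19.3 FPKM in siNON dex libraries and 23.4, 25.0 and 20.3 FPKM in siNON vehicle libraries. It fell by 0.94 ± 0.08 under dex and by 0.84 ± 0.08 under vehicle on the log2 scale (SE). In the authors' deposited table for A549 the log2 fold change of IRF2BP2 was -0.31 in vehicle, -0.66 with dex, -0.40 with TNF and -0.62 with the 2 agents together. Its pooled level in A549 was 26.3 FPKM with siIRF2BP2 against 29.7 FPKM with siNON under vehicle, the closest pair, and 17.9 against 25.4 FPKM under both agents, the widest. Of 13 HEK293 markers all passed the filter in HEK293-GR, but so did 7 of 11 A549 markers, among them KRT8 (55.3 to 76.1 FPKM), KRT18 (48.2 to 67.7 FPKM) and KRT19 (32.9 to 65.3 FPKM). The 4 that did not pass, KRT7, AKR1B10, AKR1C1 and SFTPB, stood at no more than 0.218 FPKM there. In A549, 10 of 11 A549 markers had at least 30 reads, with the surfactant gene SFTPB at most 0.036 FPKM, and EYA1 of the HEK293 list was at 0. Of 12 blood, endothelial and fibroblast markers 6 passed in HEK293-GR and 3 had at least 30 reads in a pooled A549 column, while CD3E was at most 0.066 FPKM in either line. In HEK293-GR the summed HEK293 markers stood at 136 to 149 FPKM in dex libraries, against 164 to 189 FPKM in vehicle libraries, and with siNON the summed A549 markers stood at 259 to 269 FPKM in dex libraries, against 173 to 202 FPKM in vehicle libraries. Under dex the summed A549 markers were lower with siIRF2BP2 (195 to 245 FPKM) than with siNON (259 to 269 FPKM), and so were the summed blood, endothelial and fibroblast markers (7.71 to 9.25 against 11.9 to 12.3 FPKM). S100P, a single member of the A549 list, ran between 0.72 and 74.4 FPKM over the HEK293-GR libraries. Shifts in the sum are therefore not shown to be shared by the whole list. The part of these lists in the dex and knockdown results was not tested.

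Knockdown of IRF2BP2 under vehicle lowered EPAS1 most among the 40 genes in HEK293-GR. EPAS1 (hg19 chr2:46524541-46613842) had 2.58, 2.30 and 2.62 FPKM in siIRF2BP2 libraries, against 6.00, 4.97 and 4.37 FPKM in siNON libraries. Every siIRF2BP2 library was below every siNON library, and the log2 fold change was -0.99 ± 0.13 (SE, n = 3 per group), with an adjusted p of 0.000162 by limma with Benjamini-Hochberg adjustment over 15594 genes. In all, 6 of the 40 genes (15.0%) passed an adjusted p of 0.05, 1 higher and 5 lower, and the share over all genes tested was 15.5%. The 40 as a whole were therefore called about as often as any gene. None of the 10 densest enzymes was called, and of the other 30 genes 6 were (20.0%), a gap to all genes that was not tested. All values of the other comparisons in HEK293-GR come from the same limma fit. How many of all genes had groups without overlap was not counted, so separation of libraries is given here and below only as a description.

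Among the transporters, SLC2A3, the high-affinity glucose transporter GLUT3, moved up and SLC16A3, the lactate exporter MCT4, moved down. SLC2A3 (hg19 chr12:8071824-8088892) had 8.59, 8.32 and 9.53 FPKM in siIRF2BP2 vehicle libraries, against 6.73, 6.37 and 5.72 FPKM in siNON vehicle libraries (log2 0.48 ± 0.08, adjusted p = 0.00162). SLC16A3 (hg19 chr17:80190108-80197375) had 0.488, 0.442 and 0.458 FPKM in siIRF2BP2 vehicle libraries, against 0.776, 0.824 and 0.660 FPKM in siNON vehicle libraries (log2 -0.60 ± 0.16, adjusted p = 0.0196). The libraries of the groups did not overlap for either gene, although SLC16A3 had only 20 to 36 reads in each vehicle library. SLC2A1, the widely expressed GLUT1, had a log2 fold change of -0.02.

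Of the 16 glycolytic enzymes, ALDOC and PFKL fell and 14 were not called, among them the 10 densest at the shared upper level. ALDOC, the aldolase best known from brain, had 3.40, 3.57 and 4.62 FPKM in siIRF2BP2 vehicle libraries, against 5.68, 4.94 and 5.22 FPKM in siNON vehicle libraries (log2 -0.45 ± 0.11, adjusted p = 0.0127). PFKL, the liver form of phosphofructokinase, changed by -0.30 ± 0.09 (adjusted p = 0.0392). NDRG1, a stress and differentiation gene, had 24.5, 24.2 and 29.4 FPKM in siIRF2BP2 vehicle libraries, against 37.6, 39.2 and 30.2 FPKM in siNON vehicle libraries (log2 -0.45 ± 0.11, adjusted p = 0.0119). Its groups came close, at 29.4 and 30.2 FPKM, without overlap. The flux regulators gave no call, and the 34 uncalled members lay between -0.22 and 0.31. The median of the 40 was -0.09, against 0.03 over all genes.

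EPAS1 and SLC2A3 kept their calls with any 1 of the 12 libraries left out, whereas NDRG1 lost its call in 3 of these fits, ALDOC in 2, SLC16A3 in 4 and PFKL in 8. The count moved with that over all genes. It came to 2 without siNON vehicle replicate 1 or siIRF2BP2 vehicle replicate 2 (7.52% and 7.45% of all genes), to 3 without siNON vehicle replicate 2 (8.65%) and to 11 without siNON vehicle replicate 3 (30.9%). A fit of these groups alone called 2 members and 3.64% of all genes, and the authors' deposited table called 3 members and 5.41% of the genes tested. That table did not call ALDOC, PFKL or SLC16A3 (FDR 0.149, 0.103 and 0.368).

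Under dex, knockdown again lowered EPAS1, ALDOC, SLC16A3 and PFKL, and raised PDK1, PDK3, KDM3A and HIF1A. EPAS1 had 1.69, 2.09 and 2.06 FPKM in siIRF2BP2 dex libraries, against 4.17, 4.28 and 4.69 FPKM in siNON dex libraries (log2 -1.14 ± 0.13, adjusted p = 2.97e-05). These 4 lowered genes were also called lower under vehicle, whereas NDRG1, called lower under vehicle, had a log2 fold change of -0.26 under dex and was not called. NDRG1 held 3302 to 4234 reads in each dex library and up to 1.38 reads per base. The part of the upper level in this value and in its dex response was not tested. Of the 40 genes 11 (27.5%) were called, 4 higher and 7 lower, against 39.7% of all genes tested. None of the 10 densest enzymes was called, and of the other 30 genes 11 were (36.7%).

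ALDOC had 3.76, 3.91 and 3.65 FPKM in siIRF2BP2 dex libraries, against 5.93, 6.10 and 5.99 FPKM in siNON dex libraries (log2 -0.66 ± 0.11, adjusted p = 0.000531). SLC16A3 had 0.399, 0.398 and 0.390 FPKM in siIRF2BP2 dex libraries, against 0.549, 0.803 and 0.668 FPKM in siNON dex libraries (log2 -0.63 ± 0.16, adjusted p = 0.00621). Both genes were lower in all 3 siIRF2BP2 libraries. SLC16A3 had few reads, 17, 15 and 23 in siIRF2BP2 dex libraries, against 23, 35 and 29 in siNON dex libraries. The authors' deposited table did not call SLC16A3 under dex (FDR 0.112). SLC2A3, higher with siIRF2BP2 under vehicle, was lower under dex, with 28.1, 30.9 and 25.6 FPKM in siIRF2BP2 dex libraries, against 35.5, 33.8 and 35.3 FPKM in siNON dex libraries (log2 -0.31 ± 0.08, adjusted p = 0.00878). PFKL changed by -0.33 ± 0.09 (adjusted p = 0.0112) and P4HA2, a subunit of collagen prolyl hydroxylase, by -0.32 ± 0.08 (adjusted p = 0.00505).

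The pyruvate dehydrogenase kinases moved apart under dex. PDK1 (hg19 chr2:173420697-173463862) had 6.84, 7.20 and 7.29 FPKM in siIRF2BP2 dex libraries, against 5.00, 4.34 and 4.29 FPKM in siNON dex libraries (log2 0.64 ± 0.11, adjusted p = 0.000566). PDK3 had 8.01, 7.73 and 8.13 FPKM in siIRF2BP2 dex libraries, against 6.25, 5.88 and 5.66 FPKM in siNON dex libraries (log2 0.42 ± 0.10, adjusted p = 0.00394). PDK2 was lower, with 17.2, 17.7 and 17.1 FPKM in siIRF2BP2 dex libraries, against 21.1, 21.0 and 21.9 FPKM in siNON dex libraries (log2 -0.30 ± 0.08, adjusted p = 0.0126). The siRNA groups did not overlap for any of these 3 genes, a description whose share over all genes was not counted.

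Of the factors themselves, HIF1A (hg19 chr14:62162119-62214977) had 36.9, 37.2 and 30.8 FPKM in siIRF2BP2 dex libraries, against 28.8, 29.3 and 26.9 FPKM in siNON dex libraries (log2 0.30 ± 0.08, adjusted p = 0.0122). KDM3A, a histone H3K9 demethylase, changed by 0.35 ± 0.08 (adjusted p = 0.00307). HIF1A and EPAS1 transcripts were thus changed in opposite directions. HIF1A lost its call without siNON dex replicate 3 (0.26) or siIRF2BP2 dex replicate 1 (0.26), and PFKL (-0.29) and PDK2 (-0.28) lost theirs without siNON dex replicate 3. A fit of these groups alone called 18 members and 50.4% of all genes, and the authors' deposited table called 19 members and 46.5% of the genes tested. The median of the 40 genes was -0.12, against 0.00 over all genes, and became -0.01 without siIRF2BP2 dex replicate 3, the deep library in which the dense enzymes were lowest.

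**Figure D2:**
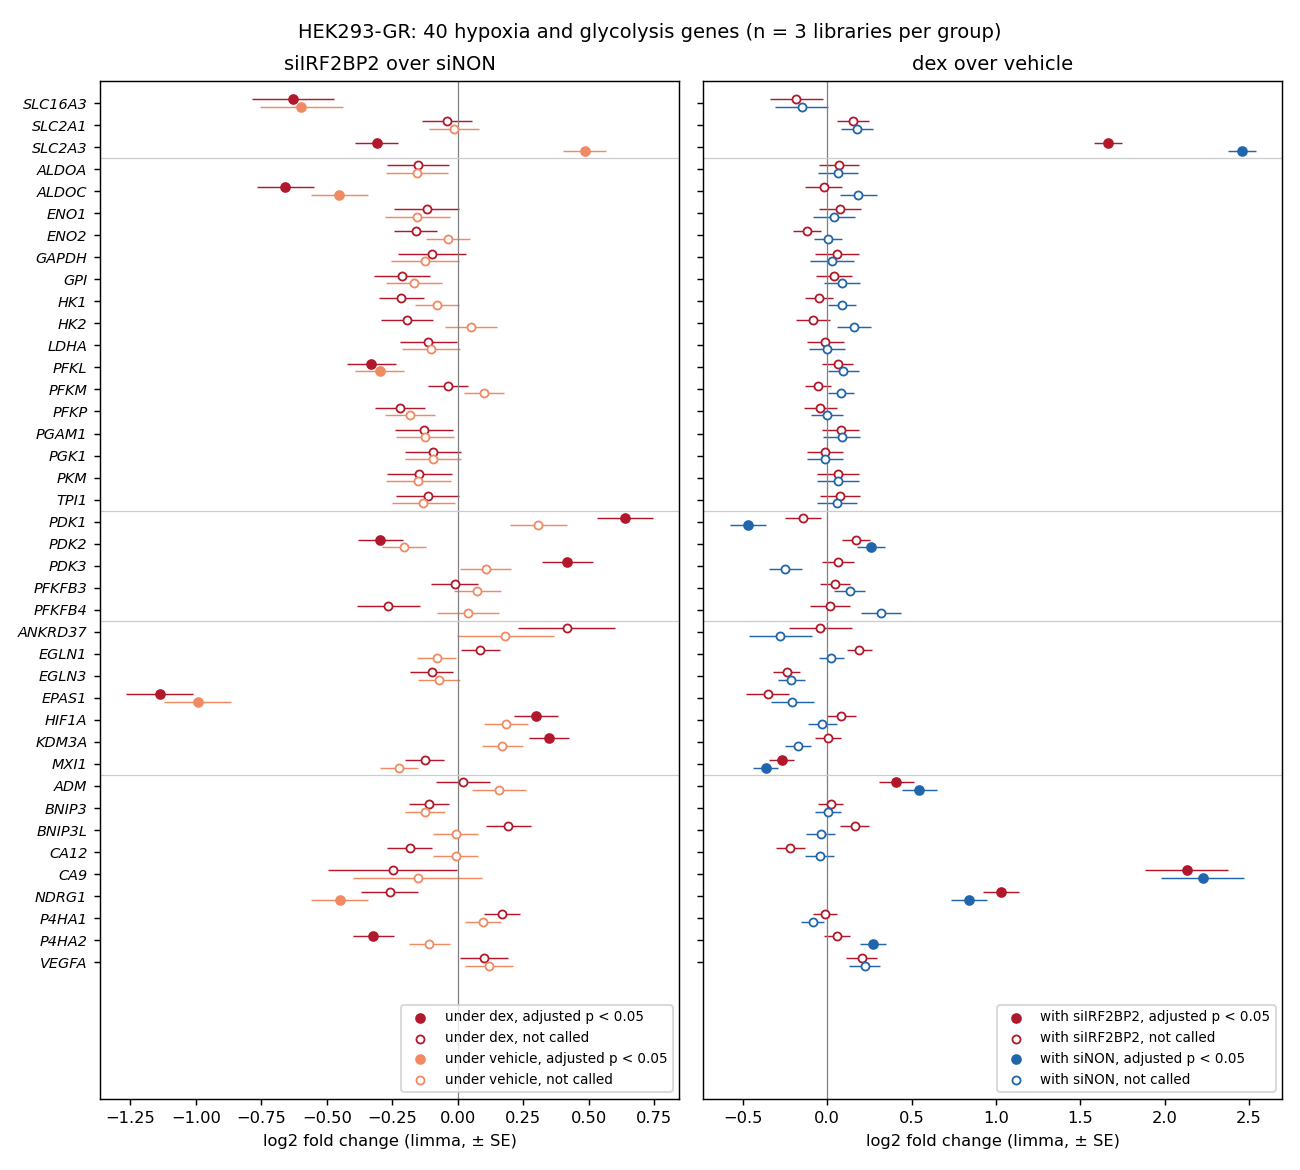
Log2 fold changes from limma for all 40 genes in HEK293-GR (horizontal axes, bars ± SE, 3 libraries per group), with siIRF2BP2 over siNON on the left and dex over vehicle on the right, and filled points for an adjusted p under 0.05. EPAS1 lies farthest left in both knockdown comparisons (-1.14 under dex and -0.99 under vehicle), and SLC2A3 (2.46 with siNON) and CA9 (2.22 with siNON) lie farthest right for dex.

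Dex raised a few targets strongly and left the glycolytic enzymes uncalled. With siNON, SLC2A3 had 35.5, 33.8 and 35.3 FPKM in dex libraries, against 6.73, 6.37 and 5.72 FPKM in vehicle libraries, a 5.50-fold rise (log2 2.46 ± 0.08, adjusted p = 2.50e-12). The dex libraries were all far above the vehicle libraries. Of the 40 genes 8 (20.0%) were called, 6 higher and 2 lower, against 20.7% of all genes tested, and none of the 16 enzymes was among them. For the 10 densest enzymes, at the shared upper level, the lack of a call is no measure of their response to dex. The other called genes were NDRG1, CA9, ADM, P4HA2 and PDK2, which were higher, and PDK1 and MXI1, which were lower.

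NDRG1 had 63.2, 61.6 and 65.9 FPKM in siNON dex libraries, against 37.6, 39.2 and 30.2 FPKM in siNON vehicle libraries (log2 0.84 ± 0.11, adjusted p = 2.72e-05). CA9 (hg19 chr9:35673915-35681154) had 0.513, 0.493 and 1.05 FPKM in siNON dex libraries, against 0.087, 0.069 and 0.030 FPKM in siNON vehicle libraries. That was 66 reads over the 3 dex libraries and 6 over the 3 vehicle libraries, a ratio of 11.2 per tag (exact 95% counting interval 4.86 to 31.5). CA9 passed the filter only through its dex libraries (13 to 34 reads, against 1 to 3 in vehicle libraries), so its call is no test and is given as a description. Its log2 fold change of 2.22 depends on the pseudocount of 0.1 added to FPKM, and was 0.65 with a pseudocount of 1 and 3.75 in the authors' deposited table. Without CA9, 7 of 39 genes (17.9%) were called.

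ADM, the vasodilator peptide adrenomedullin, had 15.4, 17.7 and 15.7 FPKM in siNON dex libraries, against 13.4, 9.85 and 10.4 FPKM in siNON vehicle libraries (log2 0.55 ± 0.10, adjusted p = 0.00112). PDK1 had 5.00, 4.34 and 4.29 FPKM in siNON dex libraries, against 5.33, 6.71 and 7.06 FPKM in siNON vehicle libraries (log2 -0.47 ± 0.11, adjusted p = 0.00515). Both groups kept apart, for PDK1 by a small margin of 5.00 against 5.33 FPKM. MXI1, a MAX partner that opposes MYC, had 8.96, 9.17 and 9.38 FPKM in siNON dex libraries, against 11.6, 12.3 and 11.6 FPKM in siNON vehicle libraries (log2 -0.37 ± 0.07, adjusted p = 0.00202). P4HA2 (0.27 ± 0.08, adjusted p = 0.0213) and PDK2 (0.26 ± 0.08, adjusted p = 0.0392) were the smallest called changes. P4HA2 was not called without siNON vehicle replicate 3 (0.19) or siNON dex replicate 3 (0.23), and PDK2 was not called without siNON vehicle replicate 3, any 1 of the 3 siNON dex libraries, or siIRF2BP2 dex replicate 1 or 2 (0.16 to 0.34 over the 12 fits).

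With siIRF2BP2, dex again raised SLC2A3, NDRG1 and ADM and lowered MXI1. SLC2A3 had 28.1, 30.9 and 25.6 FPKM in siIRF2BP2 dex libraries, against 8.59, 8.32 and 9.53 FPKM in siIRF2BP2 vehicle libraries, a 3.17-fold rise (log2 1.66 ± 0.08, adjusted p = 5.63e-10). Of the 40 genes 5 (12.5%) were called, 4 higher and 1 lower, against 10.5% of all genes tested, and without CA9 4 of 39 (10.3%). NDRG1 had 53.3, 59.1 and 47.4 FPKM in siIRF2BP2 dex libraries, against 24.5, 24.2 and 29.4 FPKM in siIRF2BP2 vehicle libraries (log2 1.03 ± 0.11, adjusted p = 3.52e-06). Both sets of libraries stood well apart.

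CA9 had 56 reads over the 3 siIRF2BP2 dex libraries and 5 over the 3 siIRF2BP2 vehicle libraries, a ratio of 11.6 per tag (exact 95% counting interval 4.70 to 37.2). ADM had 16.4, 16.1 and 16.9 FPKM in siIRF2BP2 dex libraries, against 13.7, 11.2 and 12.4 FPKM in siIRF2BP2 vehicle libraries (log2 0.41 ± 0.10, adjusted p = 0.0140). MXI1 changed by -0.27 ± 0.07 (adjusted p = 0.0253). ADM was not called without siIRF2BP2 vehicle replicate 2 (0.34) or siIRF2BP2 dex replicate 3 (0.39), and MXI1 was not called without siIRF2BP2 vehicle replicate 3 (-0.20), siIRF2BP2 dex replicate 1 (-0.25) or siIRF2BP2 dex replicate 3 (-0.26). Without siIRF2BP2 dex replicate 3 the count was 3, and the share over all genes was 8.64%.

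The dex response was also compared between the siRNAs in 1 test of the difference. SLC2A3 alone among the 40 genes passed, with a response of 1.66 with siIRF2BP2 and of 2.46 with siNON, a difference of -0.79 ± 0.12 (adjusted p = 0.0358), while 0.0128% of all genes tested passed (2 of 15594). SLC2A3 was lower in siIRF2BP2 than in siNON libraries under dex and higher under vehicle, in libraries that did not overlap in either case. The call was lost when 1 library was left out in 8 of 12 such fits, with adjusted p between 0.0131 and 0.193 over all alternatives and the difference between -0.86 and -0.73 on the log2 scale over the 12 fits. The libraries whose loss ended the call were each of the 3 dex libraries of either siRNA and siIRF2BP2 vehicle replicates 1 and 3. SLC2A3 held up to 0.74 reads per base, and its lowest dex level was in siIRF2BP2 dex replicate 3, the deepest library. Without that library the difference was -0.73. The part of library depth in this difference was not tested. SLC2A14, a near-identical copy of SLC2A3, had log2 responses to dex of 1.07 ± 0.16 with siIRF2BP2 and 2.02 ± 0.16 with siNON, at group means of 0.094 to 0.686 FPKM, and reads may be split between these genes. The other 39 differences lay between -0.30 and 0.33.

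**Figure D3:**
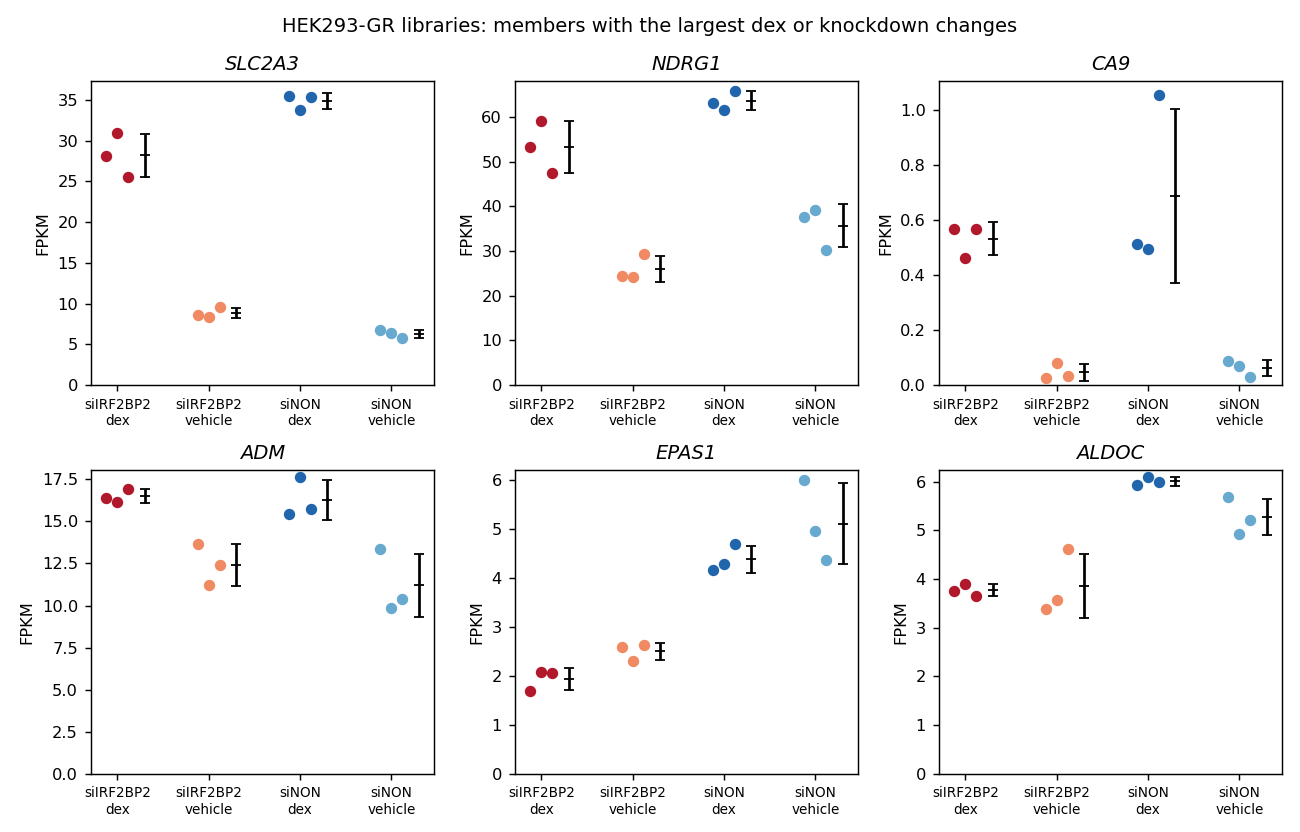
FPKM of 6 genes in each of the 12 HEK293-GR libraries (vertical axes, linear), by siRNA and treatment, with the mean ± SD of 3 libraries beside the points. SLC2A3, NDRG1, CA9 and ADM are higher in dex than in vehicle libraries with either siRNA, and EPAS1 and ALDOC are lower in siIRF2BP2 than in siNON libraries under both treatments.

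Other genes of the same pathways, 73 in the table, were read the same way, and 61 passed the filter. Knockdown called 9 lower and 9 higher under dex (29.5% of the 61) and 4 lower and 5 higher under vehicle (14.8%), against 39.7% and 15.5% of all genes. The largest log2 fold changes by knockdown under dex were those of DDIT4, an mTORC1 inhibitor (-0.54), KDM4B, a histone demethylase (-0.47), and PLOD1, a collagen lysyl hydroxylase (-0.45), among those lower, and of the nuclear receptor RORA (0.93), the collagen cross-linking enzyme LOX (0.44) and INSIG2 (0.41) among those higher. Under vehicle they were those of TMEM45A (-0.66), the chemokine receptor CXCR4 (-0.40) and KDM4B (-0.35) among those lower, and of the IGF-binding protein IGFBP3 (0.81), SLC2A14 (0.65) and TXNIP, an inhibitor of glucose uptake (0.46), among those higher. Dex with siIRF2BP2 called 9 higher and 5 lower (23.0%), and dex with siNON 13 higher and 11 lower (39.3%), against 10.5% and 20.7% of all genes. PDK4, the glucocorticoid-inducible pyruvate dehydrogenase kinase, had 36.5, 38.8 and 31.5 FPKM in siIRF2BP2 dex libraries, against 1.51, 1.81 and 1.30 FPKM in siIRF2BP2 vehicle libraries. With siNON PDK4 had 40.7, 39.97 and 38.7 FPKM in dex libraries, against 1.54, 2.07 and 1.93 FPKM in vehicle libraries. Its log2 fold changes, 4.45 ± 0.12 with siIRF2BP2 and 4.37 ± 0.12 with siNON, exceeded those of the 3 kinases among the 40 genes. HIF3A, a further alpha subunit, had log2 fold changes of 1.12 with siIRF2BP2 and 1.64 with siNON, and SLC2A14 was the other of the 3 largest called increases. HIF3A passed the filter only through dex libraries (22 to 53 reads, against 3 to 9 in vehicle libraries), and PCK1 only through vehicle libraries (2 to 6 reads in dex libraries, against 26 to 40), so the values of both are descriptions with no test. Without them dex called 12 of 59 (20.3%) with siIRF2BP2 and 22 of 59 (37.3%) with siNON. The lowest log2 fold changes under dex were those of PCK1, a gluconeogenic enzyme (-1.84 and -1.73), HMOX1, heme oxygenase (-1.19 and -0.92), and BHLHE40, a repressor of the clock (-1.17 and -1.04), with siIRF2BP2 and siNON in that order. No gene of these 61 passed the test of the difference between the responses, and 7 had an unadjusted p under 0.05.

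In A549 the values are those of the authors' deposited table, 1 log2 fold change and false discovery rate (FDR) per transcript, taken for the transcript with the most reads, with no spread between libraries. A gene is called at an FDR under 0.05, and the share over all genes is that of 14870 symbols with at least 30 reads in a pooled column. FPKM in A549 was scaled to a length that is mostly the genomic span, so levels are compared only within a gene. Summed A549 markers were lower in every siIRF2BP2 column (1146 to 2033 FPKM) than in the siNON column of the same treatment (1754 to 2639 FPKM), and the 12 blood, endothelial and fibroblast markers summed to 5.28 to 8.04 FPKM with siIRF2BP2, against 3.15 to 4.21 FPKM with siNON. Of those 12, 9 had under 30 reads in every column, and the part of either list in the knockdown values was not tested.

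EPAS1 was lower with siIRF2BP2 under all 4 treatments in A549. Its pooled level was 0.856 FPKM with siIRF2BP2 against 2.45 FPKM with siNON under vehicle, 0.725 against 2.48 FPKM under dex, 0.989 against 2.90 FPKM under TNF, and 0.811 against 2.45 FPKM under both agents. On the log2 scale these were changes of -1.62, -1.87, -1.63 and -1.66 in the authors' deposited table, in the same order and all called. EPAS1 was the only one of the 40 genes called lower in all 6 knockdown comparisons of both lines, which were read by a different test in each line. None of the 40 was called higher in all 6. The share of all genes called in all 6 was not counted, so how unusual this is cannot be said.

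By the authors' deposited table, knockdown called 14 of the 40 genes under vehicle (5 higher, 9 lower), against 38.1% of all genes, and 14 under dex (5 higher, 9 lower), against 35.3%. Under TNF it called 24 (16 higher, 8 lower), against 43.2% of all genes, and under dex plus TNF 22 (12 higher, 10 lower), against 40% of all genes. As a share of the 40 these are 35.0, 35.0, 60 and 55.0% in the order vehicle, dex, TNF, both, beside 38.1, 35.3, 43.2 and 40% of all genes, and neither the gap to all genes nor the difference between treatments was tested. The 16 higher under TNF compare with 21.9% of all genes higher.

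The feedback genes split in A549. EGLN1 and EGLN3, the prolyl hydroxylases that mark the alpha subunits for destruction and are themselves targets, went opposite ways in the authors' deposited table. EGLN3 (hg19 chr14:34393421-34420284) had log2 fold changes of 0.78, 1.55, 1.45 and 1.74 in the order vehicle, dex, TNF, both, whereas EGLN1 had -0.79, -0.96, -0.48 and -0.44. MXI1 was also called lower in all 4 comparisons of the authors' deposited table (-0.87, -0.77, -0.58 and -0.49), and ANKRD37, a small ankyrin-repeat target, under vehicle (-0.80). HIF1A was called in 1 of the 4, at -0.29 under TNF, a treatment that HEK293-GR cells did not receive. Its 4 values lay between -0.29 and 0.02. Under dex HIF1A was not called in A549, whereas in HEK293-GR it had 0.30 under dex, called.

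PFKFB4, which sets the level of the phosphofructokinase activator fructose 2,6-bisphosphate, was called higher in all 4 (0.94, 1.03, 1.79 and 1.39 in the authors' deposited table, in the order vehicle, dex, TNF, both). Its relative PFKFB3 was called in 3 (0.56, 0.46 and 0.54 under dex, TNF and both). HK2, the inducible hexokinase (hg19 chr2:75059782-75120481), was not called under vehicle (-0.21) and was higher under dex (1.18), TNF (2.59) and both (2.41) in the authors' deposited table. Its pooled levels were low, at 0.063, 0.133 and 0.103 FPKM with siIRF2BP2 under dex, TNF and both, against 0.027, 0.021 and 0.019 FPKM with siNON. PDK1 was called higher under vehicle (0.59), TNF (1.04) and both (0.69) in the authors' deposited table, for a transcript annotated as non-coding, and PDK2 lower under TNF (-0.77) and both (-0.63).

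Among enzymes, PKM was called lower in all 4 by the authors' deposited table, between -0.41 and -0.31. ALDOC fell as in HEK293-GR, by 1.02 under vehicle, 0.93 under dex and 0.65 under both in the authors' deposited table, and had -0.56 without a call under TNF. Across both lines and all 6 knockdown comparisons HK1, GPI, PFKP, ALDOA, GAPDH, PGK1, LDHA and CA9 were never called. The share of all genes without a call in any of the 6 was not counted. All of these members but HK1 and CA9 were among the 10 densest enzymes in HEK293-GR. At the upper level there, the lack of a call is no measure of how steady they were. CA9 had 1 to 3 reads in HEK293-GR vehicle libraries. Of the secreted targets, VEGFA, the main angiogenic factor, was called lower in all 4 of the authors' deposited comparisons (-0.60, -0.95, -0.36 and -0.51). ADM was far lower with siIRF2BP2 in the same table under vehicle (-1.29) and dex (-1.13), less so under TNF (-0.27), and not called under both (-0.12). Under TNF, NDRG1 (0.71), BNIP3, a mitophagy receptor (0.65), P4HA1 (0.61) and SLC16A3 (0.51) were called higher with siIRF2BP2, while BNIP3L (-0.67) and CA12 (-0.50) were lower under dex, all in the authors' deposited table. The differences between treatments were not tested. Besides EPAS1, the members called in all 4 A549 knockdown comparisons were PKM, VEGFA, EGLN1 and MXI1, lower, and PFKFB4 and EGLN3, higher. None of these was called in HEK293-GR knockdown, where PKM was among the densest enzymes and VEGFA had 0.12 under vehicle and 0.10 under dex. SLC16A3 and PFKL, called lower in both HEK293-GR knockdown comparisons, were never called lower in A549, and SLC16A3 was called higher in 2.

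**Figure D4:**
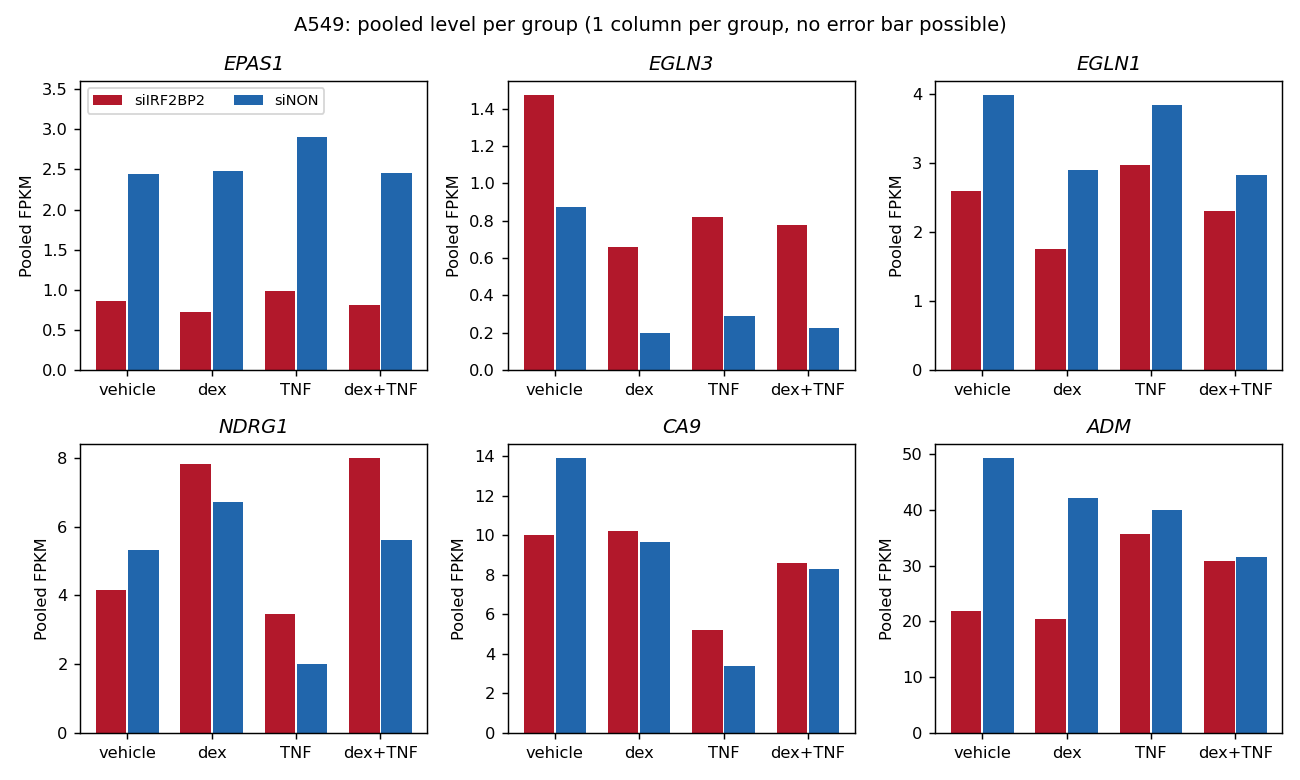
Pooled FPKM of 6 genes in A549 (vertical axes, linear and different for each gene), siIRF2BP2 bars left of siNON bars, by 6 h treatment; each bar is 1 pooled column with no error. EPAS1 is lower with siIRF2BP2 under every treatment (0.725 to 0.989 against 2.45 to 2.90 FPKM), and EGLN3 is higher.

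TNF lowered many of these genes in A549 with control siRNA. The authors' deposited table called 17 of 40 with siNON (3 higher, 14 lower), 42.5% against 21.7% of all genes, and 26 with siIRF2BP2 (12 higher, 14 lower), 65.0% against 41.4%. With siNON all 3 transporters and 6 of the 16 enzymes were called lower, the median of the 40 log2 fold changes was -0.27, and the 14 lower compare with 10.5% of all genes lower. HK2 (-2.07), CA9 (-1.71), ALDOC (-1.36), EGLN3 (-1.32), NDRG1 (-1.14) and SLC16A3 (-1.02) changed most, while HIF1A rose by 0.63, in the authors' deposited table. With siIRF2BP2 the same table gave 0.73 without a call for HK2, -0.75 for CA9, -0.91 for ALDOC, -0.66 for EGLN3, -0.15 without a call for NDRG1 and -0.35 for SLC16A3, and 0.44 for HIF1A. ADM had 0.81 with siIRF2BP2, called, and -0.20 with siNON, not called, and PDK2 had -0.92, called, and -0.25, not called. SLC2A3 was called lower with both siRNAs (-0.51 with siIRF2BP2, -0.63 with siNON), and PFKM (-0.59) and PFKFB4 (0.51) were also called with siIRF2BP2 in the authors' deposited table. Whether the TNF responses differ between the siRNAs cannot be tested on pooled columns.

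Dex alone called fewer. In the authors' deposited table dex called 20 of 40 with siIRF2BP2 (7 higher, 13 lower), 50% against 26.7% of all genes, and 7 with siNON (2 higher, 5 lower), 17.5% against 11.7%. With siIRF2BP2 the largest were EGLN3 (-1.10), NDRG1 (0.96), ENO2, the neuronal enolase (-0.65), PFKFB4 (-0.58) and EGLN1 (-0.52), and with siNON EGLN3 (-1.87), HK2 (-1.84), VEGFA (0.75), PFKFB3 (-0.69) and PDK1 (0.66), in the authors' deposited table. SLC2A3, the gene most raised by dex in HEK293-GR, had 0.23 with siIRF2BP2, called, and 0.19 with siNON, not called, in the authors' deposited table for A549. Its copy SLC2A14 had 3.58 with siIRF2BP2 and 3.05 with siNON in that table, at pooled levels of 0.155 against 0.013 FPKM and 0.058 against 0.007 FPKM. NDRG1 had 0.96 with siIRF2BP2, called, and 0.53 with siNON, not called, where HEK293-GR gave 1.03 and 0.84. CA9, which dex raised in HEK293-GR, was not called in A549 (0.12 with siIRF2BP2, -0.37 with siNON), and PDK1 had opposite signs with siNON in HEK293-GR (-0.47) and A549 (0.66).

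Added to TNF, dex called 14 of 40 with siIRF2BP2 (9 higher, 5 lower), 35.0% against 27.2% of all genes, and 18 with siNON (11 higher, 7 lower), 45.0% against 18.5%, in the authors' deposited table. With siIRF2BP2 and siNON the same table gave NDRG1 1.22 and 1.49, CA9 0.73 and 1.22, VEGFA 0.92 and 1.07, ALDOC 0.82 and 0.91, SLC16A3 0.40 and 0.64, and LDHA 0.65 and 0.53. PFKFB3 (-0.63 and -0.70) and SLC2A1 (-0.57 and -0.52) were lower with both siRNAs in the authors' deposited table, HK1 had 0.59 and 0.39, and PDK1 (0.55) was called with siNON alone, a difference that was not tested. NDRG1, CA9, ALDOC and SLC16A3, lowered by TNF with siNON, were thus higher when dex was present with TNF; these comparisons share the TNF column. Added to dex, TNF called 24 of 40 with siIRF2BP2 (18 higher, 6 lower), 60% against 33.6% of all genes (18.8% higher), and 3 with siNON (0 higher, 3 lower), 7.5% against 11.6%, in the authors' deposited table. The 3 were SLC2A1 (-0.79), SLC2A3 (-0.75) and PFKFB3 (-0.49). With siIRF2BP2 the same addition gave PFKFB4 0.81, HK2 0.76, ADM 0.68, HIF1A 0.64, PDK1 0.61, PDK3 0.60 and CA12 0.56, and SLC2A3 -0.82, PFKM -0.69, PDK2 -0.66 and PFKFB3 -0.51, in the authors' deposited table. Set against vehicle, dex plus TNF called 23 with siIRF2BP2 (15 higher, 8 lower), against 45.8% of all genes, and 12 with siNON (2 higher, 10 lower), against 23.6%, in the authors' deposited table. The largest with siIRF2BP2 were NDRG1 (1.06), PFKFB3 (-0.83), PDK2 (-0.78), EGLN3 (-0.76) and PFKM (-0.75), and with siNON HK2 (-2.35), EGLN3 (-1.73), PFKFB3 (-1.19), SLC2A1 (-0.999) and ENO2 (-0.77), by the authors' deposited table.

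**Figure D5:**
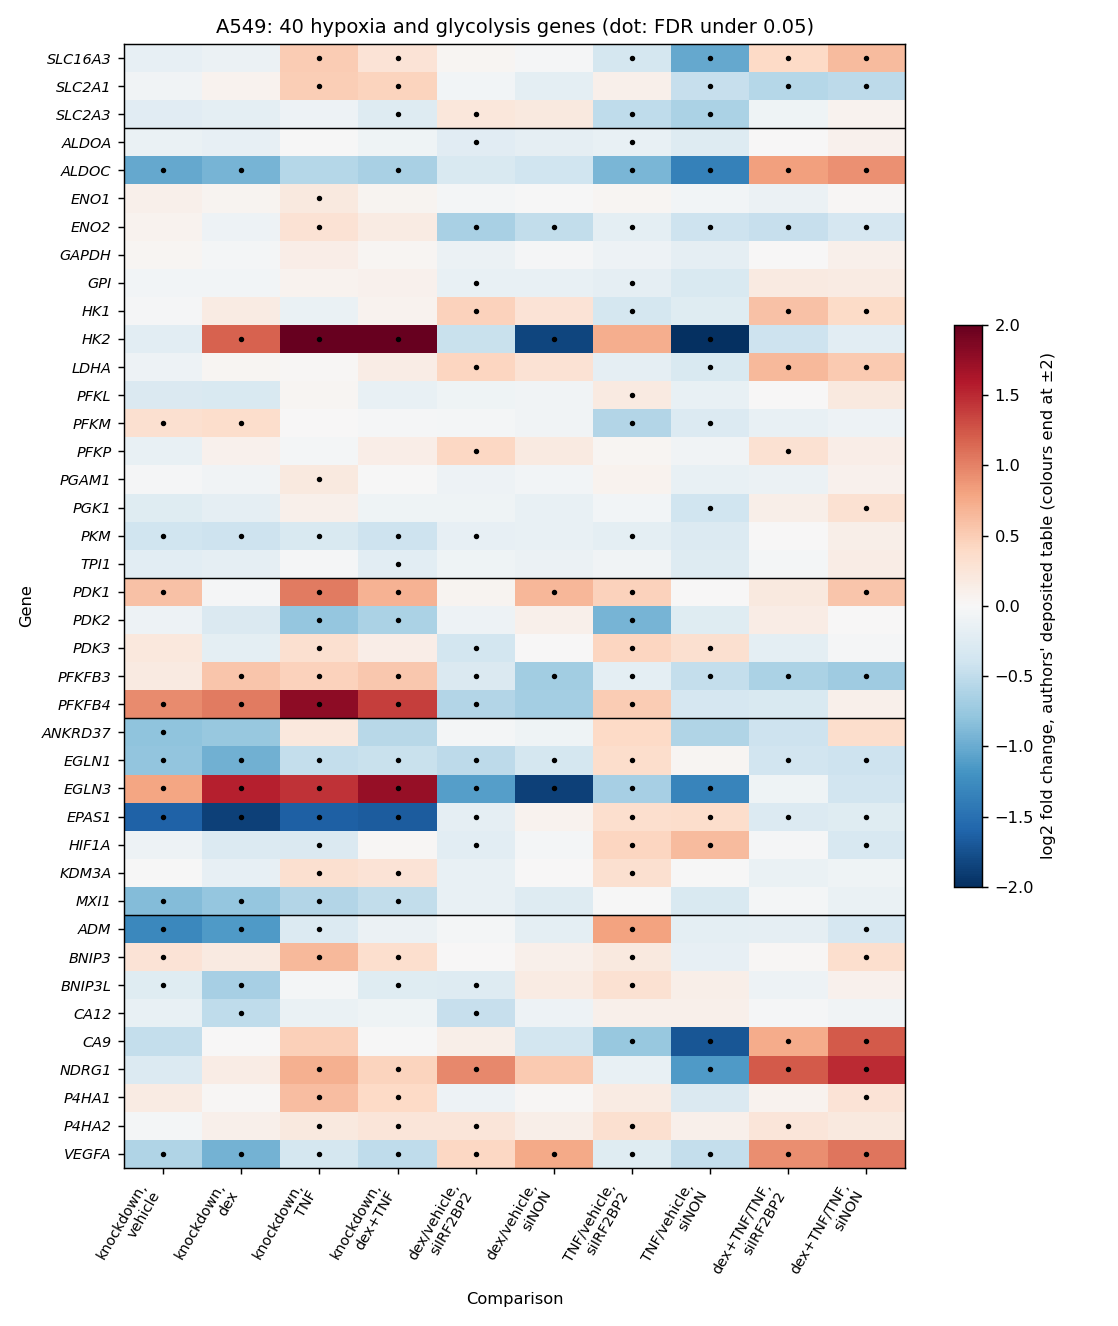
Log2 fold changes of the authors' deposited table for the 40 genes (rows, by role) in 10 A549 comparisons (columns), with colours ending at ±2 and a dot for an FDR under 0.05. EPAS1 is blue and EGLN3 red in all 4 knockdown columns, and CA9 and NDRG1 are blue for TNF with siNON (-1.71 and -1.14) and red where dex was added to TNF.

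Of 62 other pathway genes with at least 30 reads in A549, the authors' deposited table called 33 lower or higher by knockdown under dex (21 lower, 12 higher), 53.2% against 35.3% of all genes, and 31 under vehicle (22 lower, 9 higher), 50% against 38.1%. Under dex the largest in that table were PCK1 (-1.69), IGFBP3 (-1.38) and PDK4 among those lower and HIF3A (2.17), SLC2A14 (1.27) and ANGPTL4, a lipoprotein lipase inhibitor (0.87), among those higher. Under vehicle they were TXNIP (-1.61), CXCR4 (-1.08) and PDK4 among those lower and SLC2A12 (0.82), SLC16A7 (0.62) and AK4 (0.53) among those higher, in the authors' deposited table. PDK4 was lower with siIRF2BP2 under vehicle (-1.05), dex (-1.36), TNF (-1.49) and both (-1.31) in that table. Dex with siNON called 10 of the 62 higher and 3 lower (21.0% against 11.7% of all genes), led by SLC2A14, ANGPTL4 (2.64) and PCK1 (2.11) and by HMOX1 (-1.17), IGFBP3 (-0.57) and HKDC1 (-0.34) in the authors' deposited table. TNF with siNON called 9 higher, among them ARNT2 (1.16) and HKDC1 (1.03), and 9 lower, led by PCK1 (-2.65), ANGPTL4 (-1.53) and HILPDA (-1.35), in the authors' deposited table, which is 29.0% of the 62 against 21.7% of all genes.

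Few IRF2BP2 peaks lay within 10 kb of these genes. The authors' lists held 1400 peaks under dex and 1108 under vehicle in HEK293-GR (hg19), each with a score of 1, so only positions were used. Within 10 kb of a start site, none of the 40 genes had a peak under dex, against 1.45% of all genes tested, and HIF1A and SLC2A1 had one under vehicle (2 of 40, 5.0%), against 1.31%. The HIF1A peak (chr14:62161803-62162145) spanned the annotated start, with its centre 145.5 bases upstream. The SLC2A1 peak (chr1:43423910-43424252) was centred 766.5 bases inside the gene. In HEK293-GR knockdown, HIF1A had 0.30 under dex, called, and 0.19 under vehicle, not called, and SLC2A1 had -0.04 and -0.02, neither called. EPAS1, the most lowered gene, had no peak within 100 kb under either treatment. Within 50 kb 4 of the 40 had a peak under dex and 4 under vehicle (10% each), against 5.85% and 4.96% of all genes, and within 100 kb 6 (15.0%) and 7 (17.5%), against 11.4% and 9.12%.

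GAPDH, PGK1, ENO1, LDHA, PKM, TPI1, PGAM1 and BNIP3 have processed copies elsewhere in the genome, and PGAM4, a copy of PGAM1, stood at 0.163 to 0.207 FPKM on average in HEK293-GR. The treatment of reads that match several places, and of strand, is not given in the sources used here. Reads of SLC2A1, ENO1, HIF1A, P4HA2, TPI1, PFKM, PDK2 and ANKRD37 can therefore not be told apart from those of antisense or overlapping neighbours.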

How the data were processed

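RNA was measured in 12 HEK293-GR libraries and 8 pooled A549 columns, and IRF2BP2 peaks in HEK293-GR. Per the file headers the authors gave FPKM, log2 fold changes with FDR (adjusted p-value) columns, and peaks whose deposited score is 1 throughout. Per the submitters' processing notes FastQC, Trimmomatic 0.33, Bowtie2, TopHat2, HOMER and edgeR were used for RNA and FastQC, Bowtie 0.12.9, HOMER 4.10.3 and bedtools for ChIP, on hg19, with no role or order. The authors' test is not given in the sources used here. FPKM times length came to whole reads in no fewer than 99.9% of values checked (tolerance 0.01 reads after rounding), which gave a depth of 18.2 to 28.5 M tags per HEK293-GR library, 55.6 to 61.7% of them on genes, and 35.8 to 56.9 M per A549 column, which limits the precision of low transcripts.

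The 15594 HEK293-GR genes that had 10 or more such reads in 3 or more libraries entered limma 3.58.1 (trend, R 4.3.3) on log2(FPKM + 0.1), a scale that understates changes of low genes, in 1 fit of 4 groups with 8 residual degrees of freedom and 5 contrasts, Benjamini-Hochberg adjusted at 0.05. The fit was tested on simulated data. Members, gene lists and the naming rule were chosen with earlier results of these data known. By that rule statistics are given for members past 0.05 in HEK293-GR, and in A549 for members past FDR 0.05 with a log2 fold change of at least 0.5 in either direction (at most 12 per comparison), besides matched values, the 3 largest called changes of other pathway genes in each direction (in A549 for the knockdown under dex or vehicle and for dex or TNF with siNON), and copies of members. One gene that the rule would name is not reported here. One A549 transcript per symbol was used. Alternatives were the scaling, pseudocount, filter, replicate block, single libraries left out, the groups fitted, the authors' own calls (added after seeing the data), the A549 measure, transcript and FDR, and the peak window and overlap. Intervals cover counting error only.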

Additional observations from a re-analysis of the deposited data

Results flagged for a closer look

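The dex response of SLC2A3 in HEK293-GR differed between the siRNAs by -0.79 on the log2 scale (siIRF2BP2 minus siNON), by the limma test of the difference itself. SLC2A3 had 28.1, 30.9 and 25.6 FPKM in siIRF2BP2 dex libraries and 8.59, 8.32 and 9.53 FPKM in siIRF2BP2 vehicle libraries, against 35.5, 33.8 and 35.3 FPKM in siNON dex libraries and 6.73, 6.37 and 5.72 FPKM in siNON vehicle libraries. Its near-identical copy SLC2A14 had a log2 response to dex of 1.07 with siIRF2BP2 and 2.02 with siNON, and its difference was not called. The adjusted p of the SLC2A3 difference ran between 0.0131 and 0.193 over the alternatives tried. The part of library depth in this difference was not tested.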

How the results depend on the processing

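Of 31 member calls in HEK293-GR, no direction changed under any alternative, where 495 values stayed called and 61 did not. These include the dex calls of CA9 with either siRNA, each kept in all 18 alternatives. CA9 passed the filter only through its dex libraries, so its part of these values is no test. Fits of the compared groups alone called 2 members for the knockdown under vehicle, against 6 in the fit of 4 groups, and 18 for the knockdown under dex, against 11, where all genes called came to 3.64% and 50.4%, against 15.5% and 39.7%. The authors' deposited comparisons called 3 and 19 members, and 5.41% and 46.5% of the genes tested. Without a filter on low values no member passed the test of the difference between dex responses, and 0.0138% of all genes did. The cause of these shifts was not tested. With 1 library left out, members called ran between 2 and 11 for the knockdown under vehicle (7.45 to 30.9% of all genes). For the knockdown under dex they ran between 8 and 15 (26.5 to 45.3%). The range was 6 to 10 for dex with siNON (12.7 to 25.1%) and 3 to 7 for dex with siIRF2BP2 (8.02 to 13.2%). For the difference it was 0 to 1 (0 to 0.0449%). Low genes depend on the pseudocount: with 1 in place of 0.1, SLC16A3 had a log2 fold change of -0.26 under dex and -0.26 under vehicle. With a window of 50 kb in place of 10 kb, 4 members had a peak under dex and 4 under vehicle (10% each, against 5.85% and 4.96% of all genes), and with 100 kb 6 and 7 (15.0% and 17.5%, against 11.4% and 9.12%). No peak within 10 kb of a member was shared between dex and vehicle. In A549 the ratio of pooled FPKM, with 0.1 added to each level, was put in place of the authors' fold change. Of 119 called values 86 then moved by less than 0.2 on the log2 scale and 33 by more. The added 0.1 shrinks ratios of low levels, and its part in these shifts was not tested. With the median over transcripts all 119 moved by less than 0.2.

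Replicate numbers are shared between HEK293-GR groups, but deviations of the 18 same-numbered pairs correlated at -0.38 to 0.26 (median -0.02), with 4 over 0.1, so the numbers were not taken as pairs. With the replicate block, 5 members were called for the knockdown under vehicle (12.1% of all genes) and 11 for the knockdown under dex (35.1%). For dex, 7 were called with siNON (16.9%) and 4 with siIRF2BP2 (9.3%). For the difference 0 were called (0% of all genes).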
